A study of Rattus norvegicus with 8 samples.

Results

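The histone deacetylase family was described in bulk RNA-seq of rat medial prefrontal cortex. The family was taken as 10 listed genes, Hdac1 to Hdac9 and Hdac11, matched by gene symbol. Rows for 8 of them were found among the 17168 genes of each deposited table, namely Hdac1, Hdac2, Hdac3 and Hdac8 of class I, Hdac4, Hdac5 and Hdac9 of class IIa, and Hdac11 of class IV. Hdac6 and Hdac7 were not analysed here, so class IIa is represented by 3 of its 4 listed members. All 8 genes passed the filter on low counts, with between 78 and 2603 reads per library.

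The 8 libraries came from male Sprague-Dawley rats, with no treatment or transgene in the labels. The HI group (high motor impulsivity, 4 libraries) was drawn from the upper quartile of premature responses in the one-choice serial reaction time task, a test of withholding a nose poke until a cue. The LI group (low motor impulsivity, 4 libraries) came from the lower quartile, and rats between the quartiles were not analysed here. The labels give 4 to 6 rats per phenotype and do not state that each library is a separate animal, so p-values measure the spread between libraries, which may in part be technical.

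Histone deacetylases remove acetyl groups from lysines of histones and other proteins, which in chromatin usually goes with lower transcription. Class I enzymes are mainly nuclear and act as the catalytic subunits of corepressor complexes. Class IIa enzymes have little deacetylase activity of their own, bind MEF2 transcription factors, and move between nucleus and cytoplasm when calcium-dependent kinases phosphorylate them. In neurons they are known as links between activity and gene expression, and Hdac4 has been studied for its role in synaptic function and memory. Hdac11, the only class IV member, is abundant in brain.

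The promoter sequences of the 3 class IIa members are shown because these genes differed most from one another in the comparison described below. RefSeq (rat assembly GRCr8) gave a promoter window for 7 of the 8 genes, with Hdac11 the exception. Each window runs from 250 bases before the annotated start to 50 after it, 5′ to 3′ on the gene's own strand. Hdac4 lies at chr9:100197588-100197887, Hdac5 at chr10:87688005-87688304 and Hdac9 at chr6:57052522-57052821, all on the minus strand. Capitals mark matches on either strand to the GC box (GGGCGG), the CCAAT box (CCAAT), the E-box (CACGTG), the full cyclic AMP response element (TGACGTCA) and the core of the MEF2 element (TATTTTTA), and no matches in these 3 windows shared a base.
Hdac4: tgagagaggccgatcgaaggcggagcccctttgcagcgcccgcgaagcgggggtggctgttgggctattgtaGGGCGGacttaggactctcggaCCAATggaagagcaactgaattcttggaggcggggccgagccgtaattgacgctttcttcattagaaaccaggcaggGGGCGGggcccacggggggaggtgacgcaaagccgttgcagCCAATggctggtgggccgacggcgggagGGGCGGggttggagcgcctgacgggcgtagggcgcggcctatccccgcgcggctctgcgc
Hdac5: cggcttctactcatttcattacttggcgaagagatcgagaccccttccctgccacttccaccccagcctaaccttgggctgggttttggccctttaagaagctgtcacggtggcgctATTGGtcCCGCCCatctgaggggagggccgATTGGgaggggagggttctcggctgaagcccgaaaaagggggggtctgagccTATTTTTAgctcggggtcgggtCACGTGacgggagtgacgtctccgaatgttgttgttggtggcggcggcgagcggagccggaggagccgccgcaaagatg
Hdac9: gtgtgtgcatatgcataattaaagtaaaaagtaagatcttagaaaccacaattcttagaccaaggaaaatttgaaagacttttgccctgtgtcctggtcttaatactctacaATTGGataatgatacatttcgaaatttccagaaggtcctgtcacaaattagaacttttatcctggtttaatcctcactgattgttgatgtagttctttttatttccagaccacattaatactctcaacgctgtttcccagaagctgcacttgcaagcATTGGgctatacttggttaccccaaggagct

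The 3 windows were unlike in base composition. The Hdac4 window held 67% G and C with 30 CG dinucleotides, and the Hdac5 window 60.7% with 22. The Hdac9 window held 37% with 2, where the median of 33469 promoter windows was 51.7% with 7. The annotation lists many transcripts for Hdac9, so this window is that of 1 of its possible starts. Hdac4 had 3 GC boxes and 2 CCAAT boxes, Hdac5 had 1 and 2, and Hdac9 had 0 and 2. Of all windows, 33.1% held a GC box and 37.5% a CCAAT box. Hdac5 alone of the 7 windows held the MEF2 core, part of the sequence bound by the factors that class IIa enzymes repress, and it also held an E-box. These letters occurred in 2.69% and 6.42% of all windows. The full cyclic AMP response element, found in 1.83% of all windows, was in none of the 7. The motifs were chosen after the sequences had been seen, and a match is a description of letters, not of binding.

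The libraries held between 7354416 and 9476656 reads assigned to genes. Ribosomal RNA took between 0.406% and 25.5% of the reads, with HI4 and LI3 at the low end (0.406% and 0.418%) and HI2 at the high end. HI4 and LI3 also stood apart on the first principal component of all genes, which held 51.7% of the variance. Excitatory neuron markers, summed over Slc17a7, Camk2a, Neurod6 and Tbr1, ranged from 2707 to 3381 CPM (counts scaled to library size) in HI and from 2593 to 3059 CPM in LI, and all 4 were detected in every library. Striatal markers summed to between 255 and 304 CPM in HI and between 256 and 667 CPM in LI, with LI2 highest. Meningeal markers were highest in HI1, at 415 CPM.

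Per unit of transcript length, Hdac11 was the most abundant family member and Hdac8 the least. Levels are given as deposited TPM (transcript abundance scaled for length and library size), the scale on which different genes can be set side by side. Hdac11 averaged 209 ± 13.4 TPM in HI against 219 ± 8.32 TPM in LI (SD, n = 4 in each group). Hdac5 followed at 102 ± 13.1 TPM in HI and 109 ± 13.6 TPM in LI, and Hdac2, a class I subunit of corepressor complexes, at 105 ± 18.6 and 101 ± 15.2 TPM. Hdac3, the catalytic subunit of the NCoR and SMRT corepressor complex, stood at 67.2 ± 6.02 TPM in HI and 71.3 ± 8.14 TPM in LI. These 4 genes held the top of the order in every library, although Hdac5 and Hdac2 could not be placed above one another.

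The lower part of the order held genes of both main classes. Hdac1, the close relative of Hdac2, averaged 32.1 ± 4.04 TPM in HI and 33.3 ± 5.19 TPM in LI. Hdac4 averaged 33.3 ± 3.18 TPM in HI and 23.6 ± 2.73 TPM in LI, and Hdac9 averaged 26.9 ± 7.01 TPM in HI and 21.5 ± 4.23 TPM in LI. Hdac8, an X-linked class I enzyme, averaged 12.9 ± 1.48 TPM in HI and 13.4 ± 2.67 TPM in LI. Neighbours whose ranges over the 8 libraries overlapped were Hdac5 with Hdac2, Hdac1 with Hdac4, and Hdac4 with Hdac9. Hdac11 lay above Hdac5, Hdac2 above Hdac3, Hdac3 above Hdac1, and Hdac9 above Hdac8, in all 8 libraries and with no overlap of ranges. Among the 11631 genes tested, the mean TPM of Hdac11 lay at percentile 92.2, that of Hdac4 at percentile 50.7 and that of Hdac8 at percentile 30.1.

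**Figure D1:**
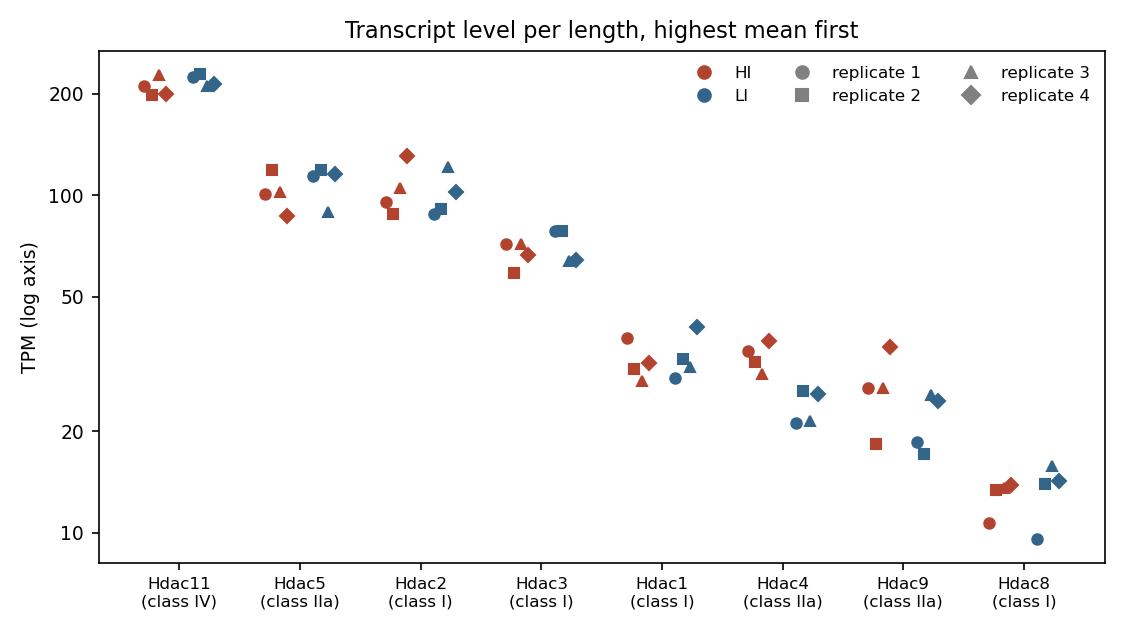
TPM of each histone deacetylase gene on a log axis, in order of the mean over 8 libraries, with HI libraries in red left of LI libraries in blue and 1 point per library. Hdac11 sits at the top, between 198 and 229 TPM, and Hdac8 at the bottom, between 9.56 and 15.8 TPM, while Hdac4 is the gene whose HI and LI points form separate groups.

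The summed level of the 8 genes differed between the groups by less than the spread between libraries. It averaged 588 ± 21.3 TPM in HI against 592 ± 13.1 TPM in LI (SD, n = 4 in each group). Ribosomal RNA is part of the TPM total and held 9.93% of it in HI2, against 1.54% or less in every other library. HI2 also had the lowest sum, 557.5 TPM, so the direction of this small difference is uncertain. Class I genes made up 36.8% ± 2.56 of the sum in HI and 36.9% ± 2.22 in LI. Class IIa genes made up 27.7% ± 1.86 in HI and 26.0% ± 1.79 in LI, and Hdac11 the rest. Within class IIa the makeup was less even. Hdac4 gave 18.6% to 23.3% of the class IIa sum in HI libraries and 13.7% to 16.2% in LI libraries, with no overlap. Hdac5 gave 54.4% to 70.2% in HI and 65.5% to 74.1% in LI, and these ranges overlapped.

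The design asks which transcripts differ between HI and LI rats. Among the 8 family genes, only Hdac4 had HI and LI libraries that did not overlap, with higher values in HI. None of the 8 passed the threshold in edgeR's quasi-likelihood test, a Benjamini-Hochberg adjusted p of 0.1 over all 11631 genes. That threshold was passed by 0% of all genes tested, higher or lower. An unadjusted p under 0.05 in edgeR was reached by 1 of the 8 (Hdac4) and by 4.16% of all genes. Non-overlapping libraries were found in 1 of the 8 and in 3.46% of all genes. The members were chosen with earlier results of these data known, so these shares are no independent evidence. DESeq2 called 1 of the 8 (Hdac4), against 38 of all 11631 genes, and gave Hdac8 no adjusted p. For limma-voom the counts were 0 of the 8 and 0 of all genes. Fisher's exact test on counts summed by group, the test the series' design text names, called 6 of the 8, against 6596 of all 11631 genes. Fisher's test ignores the spread between libraries.

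Hdac4 was the member with the clearest difference. It stood at 64.5, 64.8, 57.1 and 69.2 CPM in HI1 to HI4, against 41.4, 48.6, 41.9 and 48.9 CPM in LI1 to LI4. The lowest HI library lay above the highest LI library. The means were 63.9 ± 5.0 CPM in HI against 45.2 ± 4.11 CPM in LI (SD over 4 libraries each), a 1.41-fold difference with a 95% interval from 1.19 to 1.68. The log2 fold change was 0.50 ± 0.11 (SE), with adjusted p = 1.00 (edgeR, quasi-likelihood). Its unadjusted p of 0.00136 ranked 13 among the 11631 genes, and 5.02% of genes had a log2 fold change at least as far from 0.

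Other ways of testing moved the call for Hdac4 but not its size by much. Its adjusted p was 0.0354 in DESeq2 and 7.88e-15 in Fisher's exact test. With the untransformed ribosomal RNA share of each library as a covariate, as planned, the adjusted p of Hdac4 in edgeR was 0.589. With the log2 share, added once the data had been seen, it was 0.0616. That value was 0.518 without HI4 and 0.171 without LI3. With no covariate its log2 fold change lay between 0.45 and 0.55 when each library was left out in turn, and was 0.42 without both HI4 and LI3. The counted Hdac4 transcript is 3999 bases long, longer than or equal to 83.9% of tested genes, and abundance tilted towards long transcripts in HI4 (a slope of 0.13 in log2 CPM against log2 length) and away from them in LI1 (-0.08). After correction of log2 CPM for length the difference was 0.44.

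Some marker lists also differed between the groups, mostly with overlap. Microglial markers, summed over Cx3cr1, P2ry12, Csf1r, Aif1 and C1qa, ranged from 190 to 224 CPM in HI and from 236 to 246 CPM in LI. These sums did not overlap, and all 5 genes had negative log2 fold changes. Interneuron markers summed to between 594 and 686 CPM in HI and between 673 and 885 CPM in LI, with 5 of 6 lower in HI. Meningeal markers summed to between 31.0 and 415 CPM in HI and between 13.5 and 76.0 CPM in LI, and all 3 that were tested stood higher in HI (median log2 difference 1.86). No striatal marker of 5 (median -0.91) and no oligodendrocyte marker of 4 (median -0.64) was higher in HI, and LI2 had the highest sum of both lists. Excitatory neuron markers had 3 of 4 higher in HI and oligodendrocyte precursor markers 3 of 3 (medians 0.14 and 0.13). Astrocyte markers had 2 of 5 higher, endothelial markers 2 of 4 and general neuronal markers 2 of 4. Apart from the microglial sums, the summed levels of HI and LI overlapped in each of these lists. None of these lists held a gene called by edgeR, and no marker was at 0 in any library. Their part in the Hdac4 difference was not tested, and in homogenate fewer cells of a type and less RNA per cell cannot be told apart.

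**Figure D2:**
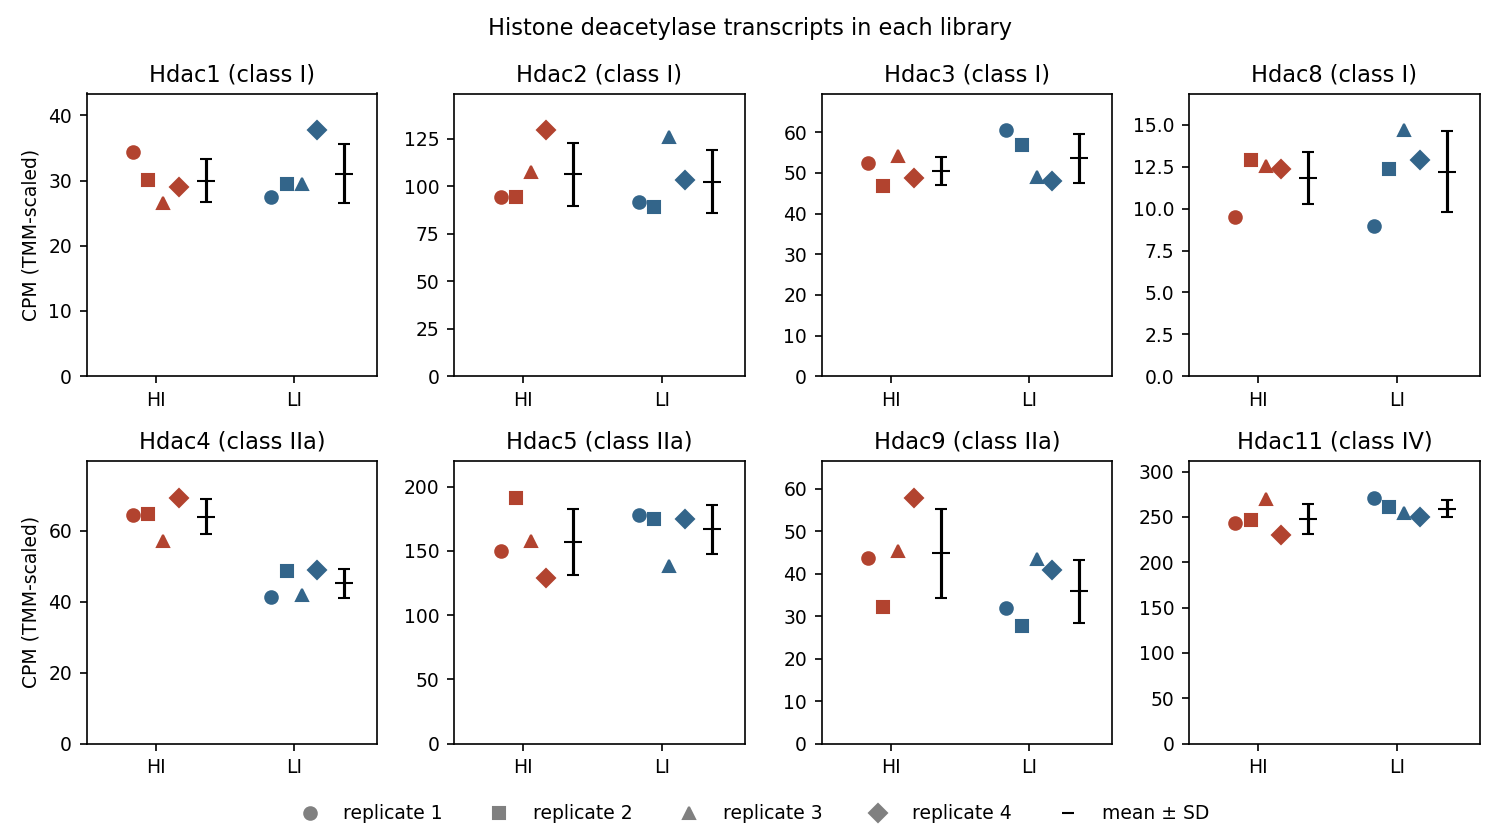
CPM of each of the 8 genes, 1 panel per gene with an axis from 0, HI libraries in red on the left and LI libraries in blue on the right, marker shape giving the replicate number and black bars the mean ± SD of 4 libraries. The 4 HI points of Hdac4 lie between 57.1 and 69.2 CPM, above the 4 LI points between 41.4 and 48.9 CPM, and the groups overlap in the other 7 panels.

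Hdac9, the other class IIa member with higher mean values in HI, varied more between libraries. It is known for a shortened form, MITR, that lacks the catalytic domain and still represses MEF2. Hdac9 stood at 43.7, 32.2, 45.3 and 57.9 CPM in HI1 to HI4, against 31.9, 27.6, 43.4 and 40.8 CPM in LI1 to LI4. HI4 was the highest of all, and HI2 lay within the LI range. The log2 fold change was 0.32 ± 0.20 (SE), with a 95% interval from -0.13 to 0.77 and adjusted p = 1.00 (edgeR, quasi-likelihood). It was 0.17 without HI4, 0.21 without LI2, 0.45 without HI2 and 0.28 without both HI4 and LI3. With the untransformed ribosomal RNA share as a covariate it was 0.49 (adjusted p = 0.613 in edgeR). With the log2 share, added once the data had been seen, it was 0.44 (adjusted p = 0.0678 in edgeR). This call was lost without HI4, at 0.51 (adjusted p = 0.518), and without LI3, at 0.43 (adjusted p = 0.176).

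Hdac5, the most abundant class IIa transcript, did not share this direction. It stood at 150, 191, 157 and 129 CPM in HI1 to HI4, against 178, 175, 138 and 175 CPM in LI1 to LI4. Both the highest and the lowest value were in HI, in HI2 and HI4. The log2 fold change was -0.09 ± 0.14 (SE), with a 95% interval from -0.40 to 0.23 and adjusted p = 1.00 (edgeR, quasi-likelihood). It was -0.01 without HI4, -0.19 without HI2, -0.17 without LI3, -0.21 with the untransformed ribosomal RNA share as covariate and -0.21 with libraries scaled by totals alone. The interval leaves room for Hdac5 to be lower in HI by 0.40 or higher by 0.23 log2 units.

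Because Hdac4 and Hdac5 were counted in the same libraries, their ratio does not depend on library scaling. The Hdac4 to Hdac5 ratio of CPM was 0.430, 0.339, 0.363 and 0.536 in HI1 to HI4, against 0.232, 0.278, 0.302 and 0.279 in LI1 to LI4. Each of the 4 HI ratios exceeded all 4 LI ratios. The log2 ratio averaged -1.28 ± 0.29 in HI against -1.87 ± 0.16 in LI (SD over 4 libraries), a difference of 0.59. The highest ratio was in HI4 and the highest in LI was in LI3, the libraries with the least ribosomal RNA. As the Hdac4 values themselves did not overlap, this separation is no independent evidence.

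The class I genes had small differences between HI and LI, within the spread between libraries. Hdac2 stood at 94.3, 94.1, 108 and 129 CPM in HI1 to HI4, against 91.7, 89.2, 126 and 103 CPM in LI1 to LI4. HI4 and LI3 were the highest libraries of their groups. Its log2 fold change was 0.05 ± 0.15 (SE, 95% interval from -0.28 to 0.39), and the sign turned to -0.05 when libraries were scaled by their totals alone, and also without HI4. Hdac1 averaged 30.0 ± 3.25 CPM in HI against 31.0 ± 4.54 CPM in LI, a log2 fold change of -0.05 ± 0.14 (SE) with an interval from -0.37 to 0.27, and 0.05 without LI4.

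Hdac3 and Hdac8 gave the same picture. Hdac3 averaged 50.6 ± 3.43 CPM in HI and 53.6 ± 6.03 CPM in LI, a log2 fold change of -0.08 ± 0.12 (interval from -0.34 to 0.18) that lay between -0.14 and -0.02 with each library left out in turn. Hdac8, the least counted member, averaged 11.8 ± 1.56 CPM in HI and 12.2 ± 2.39 CPM in LI, a log2 fold change of -0.05 ± 0.19 (interval from -0.47 to 0.37), and 0.05 without LI3 or without HI1. In all 4 class I genes the libraries overlapped and adjusted p was 1.00 (edgeR, quasi-likelihood). The intervals are bounds on the difference and do not show that HI and LI are alike.

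Reads of Hdac1 can be shared with near-identical copies. The table also lists Hdac1l, a gene of very similar name, with at most 3.71 estimated reads in a library and 0 in replicates 3 and 4 of both groups. The Hdac1 counts of replicates 1 and 2 (HI1, HI2, LI1 and LI2) were not whole numbers, and those of replicates 3 and 4 were. The cause of this split was not tested. The annotation holds further Hdac1 pseudogenes, so small differences in Hdac1 are uncertain.

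Hdac11, known mainly for removing long fatty acyl groups from proteins, was the steadiest member across libraries. It stood at 243, 247, 270 and 230 CPM in HI1 to HI4, against 271, 261, 254 and 250 CPM in LI1 to LI4. Its coefficient of variation over the 8 libraries was 5.47%, against 23.9% for Hdac9 and 19.9% for Hdac4. The log2 fold change was -0.07 ± 0.09 (SE, 95% interval from -0.27 to 0.14), with adjusted p = 1.00 (edgeR, quasi-likelihood), and -0.03 without HI4. Hdac10, a class IIb enzyme outside the listed members, averaged 9.68 ± 3.54 CPM in HI and 10.01 ± 2.75 CPM in LI (log2 fold change -0.06 ± 0.29).

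**Figure D3:**
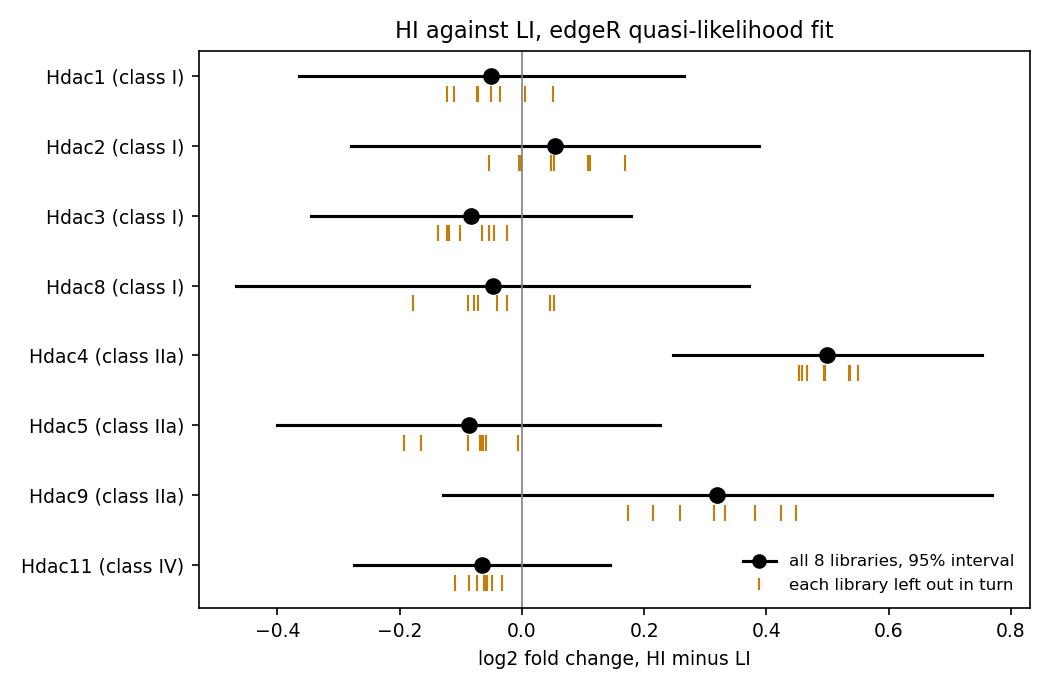
Log2 fold change, HI minus LI, of each gene from edgeR's quasi-likelihood fit (black point) with its 95% interval (black line), and the estimates with each library left out in turn (orange ticks). The Hdac4 interval runs from 0.25 to 0.75 and its ticks from 0.45 to 0.55, while the other 7 intervals include 0.

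Set side by side, class IIa had more spread than class I. The 4 class I genes had log2 fold changes between -0.08 and 0.05, with 1 higher and 3 lower in HI and a median of -0.05. The 3 class IIa genes lay between -0.09 and 0.50, with 2 higher and 1 lower and a median of 0.32. Over all genes tested the median was -0.01, and 48.5% had a positive value. Counts of 4 and 3 genes are too few to call anything particular to a class.

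Class means per library were formed as the average, over the class, of each gene's log2 CPM minus its own mean over 8 libraries. The class IIa mean was 0.11, 0.08, 0.09 and 0.20 in HI1 to HI4, against -0.17, -0.17, -0.14 and 0.02 in LI1 to LI4. No HI library lay below any LI library, and LI4 came nearest. The class I mean was -0.06, -0.05, 0.00 and 0.06 in HI1 to HI4, against -0.12, -0.02, 0.11 and 0.08 in LI1 to LI4, and here the groups overlapped. Class IIa minus class I averaged 0.13 ± 0.03 in HI against -0.13 ± 0.10 in LI (SD over 4 libraries), a difference of 0.26 log2 units, and no test was made of this score. The counted class IIa transcripts (3213 to 3999 bases) are longer than those of class I (1643 to 2178 bases). After correction of log2 CPM for length the difference was 0.21. With class medians in place of means, taken on log2 CPM that was not centred, the difference was 0.55. The class IIa median was then Hdac4 itself in every library but LI3, and the class I median lay midway between Hdac1 and Hdac3. That value therefore largely restates the Hdac4 difference.

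Hdac4 carried much of the class IIa difference. With Hdac4 left out, the class IIa mean was 0.03, -0.02, 0.09 and 0.12 in HI1 to HI4, against -0.08, -0.19, -0.04 and 0.09 in LI1 to LI4. The groups then overlapped, because LI4 lay as high as HI3. The difference of this reduced mean between HI and LI was 0.11, against 0.24 with Hdac4 included.

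**Figure D4:**
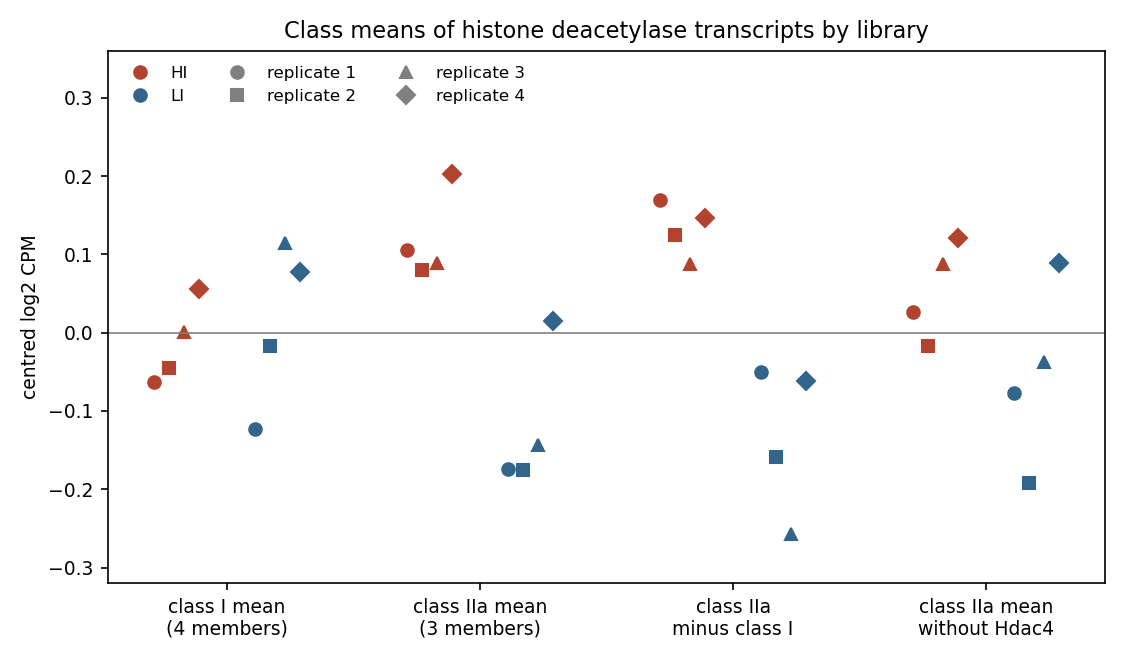
Class means of centred log2 CPM per library, HI in red left of LI in blue, marker shape giving the replicate number. The class IIa mean and its difference from class I separate HI from LI, the class I mean does not, and the class IIa mean without Hdac4 spans -0.02 to 0.12 in HI and -0.19 to 0.09 in LI.

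A few members (Hdac2, Hdac5 and Hdac9) had an extreme value of each group in the libraries that stood apart. Hdac2 and Hdac9 had their highest value of each group in HI4 and LI3, and Hdac5 its lowest. Hdac9 minus Hdac5 in log2 CPM was -1.16 in HI4 and -1.67 in LI3, the highest value of each group, and -2.56 in HI2 and -2.65 in LI2, the lowest. In both groups the library with the least ribosomal RNA had the most Hdac9 relative to Hdac5. Its part in the differences between groups was not tested beyond the covariate analyses given above.

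The genes whose profile over the 8 libraries was closest to that of Hdac4, by root mean square difference in centred log2 CPM among 8730 genes averaging at least 10 CPM, were Csmd1 (0.0807), RGD1565819 (0.0859), Stox2 (0.0936), Smcr8 (0.0951) and Insr, the insulin receptor (0.100). The standard deviation of Hdac4 itself over the libraries was 0.29 log2 units. Their log2 fold changes lay between 0.32 (Insr) and 0.49 (Smcr8), which the likeness to Hdac4 fixes in part. For the other members the closest genes were Zfp142 to Hdac1, Wtap to Hdac2 (0.0183), Mff to Hdac3, Sez6 to Hdac8, Fjx1 to Hdac5, Zbtb6 to Hdac9 and Entpd4 to Hdac11.

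Genes that work with or against histone deacetylases were compared in the same way, in 5 lists with 79 tested genes. In edgeR's quasi-likelihood test 0 of the 79 passed the adjusted threshold, and DESeq2 and limma-voom called 0 as well. DESeq2 gave no adjusted p for a few of them, Sik1, Sirt4 and Baz1a included. Fisher's exact test called 52 of the 79, against 6596 of all 11631 genes. An unadjusted p under 0.05 was reached by 4 of the 79, or 5.06%, against 4.16% of all genes. Libraries did not overlap in 4 of the 79, against 3.46% of all genes. Both shares are near those of all genes.

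Class IIa targets and kinases, the MEF2 factors bound by class IIa enzymes and the kinases and 14-3-3 proteins that export them from the nucleus, had 18 of 22 tested genes higher in HI, the median log2 difference being 0.09. For all genes tested, the median was -0.01 and 48.5% had a positive value. Camk2d, a calcium/calmodulin-dependent kinase, stood at 126, 115, 125 and 143 CPM in HI1 to HI4, against 97.5, 96.5, 114 and 84.9 CPM in LI1 to LI4. Its groups did not overlap, with HI2 and LI3 almost level, and its log2 fold change was 0.38 ± 0.12 (SE). Sik1, a salt-inducible kinase that phosphorylates class IIa enzymes, stood at 14.1, 9.09, 9.66 and 5.72 CPM in HI1 to HI4, against 5.21, 5.68, 3.32 and 7.12 CPM in LI1 to LI4 (log2 fold change 0.85 ± 0.31). HI4 lay inside the LI range, and the Sik1 value was 0.61 without HI1. Camk2g differed by 0.25 ± 0.13, and by 0.17 without HI4.

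Class I corepressor complexes had 18 of 31 tested genes higher and 13 lower in HI, with a median of 0.02. Chd5, a neuronal chromatin remodeller of the NuRD complex, stood at 476, 529, 549 and 561 CPM in HI1 to HI4, against 471, 438, 377 and 387 CPM in LI1 to LI4. Its groups did not overlap, though HI1 and LI1 were almost level, and its log2 fold change of 0.34 ± 0.11 (SE) was 0.22 after correction for transcript length. Mbd3, another NuRD subunit, stood lower in HI without overlap, at 114 ± 16.4 CPM in HI against 139 ± 13.7 CPM in LI (-0.28 ± 0.13, and -0.18 without HI4). Here too HI1 and LI3 were almost level, at 125 and 126 CPM, and HI4 was lowest at 90.1 CPM. Brms1, of the Sin3 complex, differed by -0.20 ± 0.12, and by -0.13 without HI1.

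Sirtuins, the NAD-dependent deacetylases that form a separate class, had 1 of 6 tested genes higher in HI and 5 lower, with a median of -0.17. Sirt2, which is abundant in oligodendrocytes, stood at 153, 150, 143 and 150 CPM in HI1 to HI4, against 160, 192, 185 and 167 CPM in LI1 to LI4. All HI libraries lay below all LI libraries, and the log2 fold change was -0.24 ± 0.10 (SE). Oligodendrocyte markers, summed over Mbp, Mog, Mag and Mobp, shared this direction but not in every library. They ranged from 1183 to 1288 CPM in HI and from 1045 to 4105 CPM in LI, and all 4 had negative log2 fold changes. LI2 was highest in both Sirt2 and the markers. LI1 had the lowest marker sum of all libraries, yet its Sirt2 lay above every HI library. The part of these markers in the Sirt2 difference was not tested. Sirt6 differed by -0.20 ± 0.16, and by -0.06 without HI4. Sirt4, at a low level of 2.90 CPM in HI against 2.24 CPM in LI, differed by 0.36 ± 0.35, and by 0.17 without LI3.

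Histone acetyltransferases, which add the marks that deacetylases remove, had 4 of 7 tested genes higher in HI with a median of 0.01. Hat1 differed by -0.20 ± 0.17, and by -0.12 without HI2 and -0.37 without HI4. Kat8 differed by -0.11 ± 0.14, and by -0.02 without HI4. Kat6a differed by 0.17 ± 0.22, turning to -0.05 without HI4. Acetyl-lysine readers had 7 of 13 higher with a median of 0.03. Baz1a, at a low level of 2.81 ± 0.14 CPM in HI against 3.82 ± 1.03 CPM in LI, differed by -0.44 ± 0.25, and by -0.33 without LI4. Brd3 differed by 0.29 ± 0.21, and by 0.07 without HI4. Brpf3 differed by 0.20 ± 0.15, and by 0.10 without LI3 and 0.32 without LI2. In both lists the libraries of HI and LI overlapped in every tested gene.

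**Figure D5:**
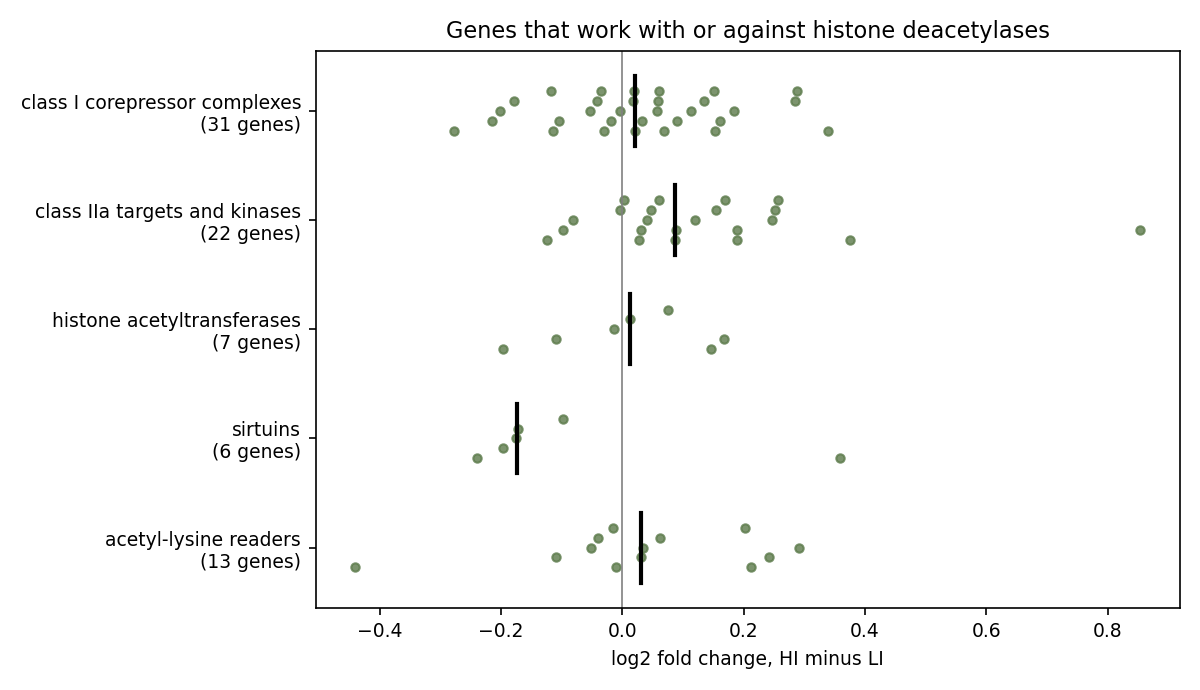
Log2 fold change, HI minus LI, of each tested gene in 5 lists around the family (green points, spread vertically only for legibility), with the median of each list as a black bar. Medians run from -0.17 for sirtuins to 0.09 for class IIa targets and kinases, and Sik1 is the point at 0.85.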

How the data were processed

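For each of 8 libraries the authors deposited an expected count (estimated reads per gene), a TPM and an FPKM per gene symbol, per the file headers. The TPM values were scaled by the authors to a fixed total that includes ribosomal RNA, and FPKM was not used. The submitters' processing notes name Bowtie2 2.1.0, an aligner. For the quantifier, genome build, annotation and strand setting, the sources used here give nothing, so overlapping genes may share reads.

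Expected counts were rounded. edgeR 4.0.16 under R 4.3.3 filtered genes (filterByExpr, minimum count 10, minimum total 15), scaled libraries by TMM and tested HI against LI by quasi-likelihood on 11631 genes, with Benjamini-Hochberg adjustment and a threshold of 0.1, the alpha of the series' design text. CPM uses the TMM-scaled library size, log2 CPM a prior count of 2, and SE is the absolute log2 fold change over the root of F. No pair of libraries of the same group was within sampling noise. The fit was also run on simulated counts, and the outcome is not given here. Alternatives used DESeq2 1.42.0, limma 3.58.1 and Fisher's exact test.

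The members and lists were chosen with earlier results of these data known. Besides the members, named genes are the 3 with the smallest p in each list, the 5 profiles closest to Hdac4 and the closest for each other member. Hdac10 and Hdac1l were named after their values were seen. The excitatory neuron and oligodendrocyte marker lists each leave out 1 gene, which is not reported here.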

Additional observations from a re-analysis of the deposited data

Results flagged for a closer look

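In 4 of 66 groups of 4 libraries, 1 library lay far from the other 3 (gap to the nearest library over the range of the group, against Dixon's critical value), where chance flags about 1 in 20. Hdac8 was low in HI1, at 9.51 CPM against 12.4 CPM in the next library (gap over range 0.848). Hdac5 was low in LI3, at 138 CPM against 175 CPM in the next (0.916). Sirt6 was low in HI4, at 18.8 CPM against 29.3 CPM (0.857). The class IIa mean was high in LI4, at 0.02 against -0.14 (0.832).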

How the results depend on the processing

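Hdac4 had higher values in HI under all 24 alternatives, with log2 fold changes from 0.39 to 0.55. Its lowest value came with libraries scaled by totals alone, which moved the median of all genes to -0.12. Fisher's exact test on summed counts moved it to -0.11. Over all genes, DESeq2 called 38, Fisher's exact test 6596 and edgeR with the log2 ribosomal RNA share, chosen after seeing the data, 440. That last count was 0 without HI4 and 0 without LI3, and every other alternative, including each library left out in turn, called 0. Class IIa minus class I, HI minus LI, was lowest after correction of log2 CPM for transcript length, at 0.21. It was 0.22 to 0.29 with each library left out in turn. It was 0.55 with class medians of uncentred log2 CPM in place of means, a value set mainly by Hdac4. Signs turned in 13 of 192 results of single members, none of them called. Hdac1 ranged from -0.12 to 0.051, Hdac2 from -0.054 to 0.17 and Hdac8 from -0.18 to 0.052 with each library left out in turn. Hdac2 was -0.050 with library totals and -0.043 by Fisher's exact test. Hdac8 was 0.026 without both HI4 and LI3. With the log2 ribosomal RNA share, Hdac1 was 0.0077 and Hdac8 0.075 without HI4, and Hdac8 was 0.055 without LI3. The causes were not tested. The best match between groups had the same replicate number for replicate 2 alone (correlations of deviations 0.22, 0.54, -0.05 and 0.06 for replicates 1 to 4). On the first principal component, replicates 1 and 2 of both groups lay between -25.9 and -13.0, and replicates 3 and 4 between 0.50 and 51.0. With the replicate number as a block 0 genes were called, and Hdac4 was 0.50 and class IIa minus class I 0.26. The block lowered the SE of Hdac9 from 0.20 to 0.12, of Hdac8 from 0.19 to 0.15 and of Hdac2 from 0.15 to 0.12. Those of Hdac1, Hdac3 and Hdac11 rose slightly. Intervals cover the spread between 4 libraries per group.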
